A study of Mus musculus with 12 samples.

Results

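The matrix metalloproteinases (MMPs), the ADAMTS proteinases and their tissue inhibitors (TIMPs) were described here as 1 family of 45 genes, taken by symbol from the 47643 genes counted in mouse C3H/10T1/2 cells. The members are every gene named Mmp or Adamts with a number, 23 MMP genes and 19 ADAMTS genes, and the inhibitors Timp1, Timp2 and Timp4. Timp3 was left out by the rule for membership and is not described here. Of the 45, 35 had at least 1 count in 1 of the 12 libraries and 22 were abundant enough to be tested. Membership was decided by symbol and not by a measured value, with earlier results of these data known.

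MMPs are zinc-dependent endopeptidases that are secreted or held at the cell surface and cut collagens, gelatin and other matrix proteins. ADAMTS enzymes carry thrombospondin repeats, and several of them cut the large proteoglycans aggrecan and versican, while others trim the ends of procollagens. TIMPs bind the catalytic site of MMPs, and Timp2 also takes part, with Mmp14, in the activation of pro-Mmp2 at the cell surface. In skeletal tissue these enzymes take part in the remodelling of cartilage and bone matrix.

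C3H/10T1/2 is a mesenchymal cell line, labelled as embryonic in origin, fibroblast in shape and sarcoma in disease, and widely used to follow bone and cartilage differentiation. A polymer reagent was used for transient, non-viral transfection, with RNA taken 3 days later. The 4 groups of 3 libraries were pH_BMP2ADV, the reference, which the series describes as the BMP2 plasmid, and the hybrid plasmids pH_BMP2ADV20a, pH_BMP2ADV148b and pH_BMP2ADV590, which the series describes as joining BMP2 with a microRNA. By the series title and plasmid names, all 4 groups carried BMP2, and no group without a plasmid was analysed here. Separate cultures are not stated for the libraries of a group, so a p-value measures the spread between these libraries only, which may be technical.

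The libraries read mainly the 3' ends of polyadenylated transcripts, and the deposited values are counts per gene. They held between 9236431 and 14727288 gene counts and between 17086 and 18055 genes above 0. Mir148b, the gene of the miR-148b hairpin, had 211, 215 and 204 counts in the 3 pH_BMP2ADV148b libraries and 0 in the other 9, whereas Mir20a was at 0 in all 12. Bmp2 had 24, 15 and 7 counts in pH_BMP2ADV, 60, 40 and 32 in pH_BMP2ADV20a, 33, 78 and 42 in pH_BMP2ADV148b and 64, 65 and 48 in pH_BMP2ADV590. All 9 hybrid libraries thus lay above the 3 reference libraries in Bmp2, and plasmid and cellular transcripts were not told apart. The part of Bmp2 in the differences from pH_BMP2ADV given for the family was not tested. The fibroblast markers were all expressed, at 16800 to 19600 counts-per-million (CPM) in sum. pH_BMP2ADV590 replicate 2 lay at 23.4 on the second principal component, where the other 2 libraries of its group lay at -22.6 and -9.63. The 9 family members that differed between pH_BMP2ADV590 and pH_BMP2ADV were the same 9 without it.

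Of each class of enzyme other than the collagenases, at least 1 member was abundant enough to be tested. Timp2 was the most abundant member, at a mean of 1330 CPM over the 12 libraries, and Mmp14 followed at 514 CPM. CPM was not divided by transcript length, since each transcript is read mainly at its end, and levels of different genes are therefore approximate. Timp1, Mmp2, Adamts5, Adamts1, Mmp16 and Mmp11 made up the rest of the 8 most abundant members. Timp1 and Mmp14 exchanged places between libraries, as did Mmp2 and Adamts5. The 22 tested members were 48.9% of the family, against 53.7% of the 21620 protein-coding genes listed.

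**Figure D1:**
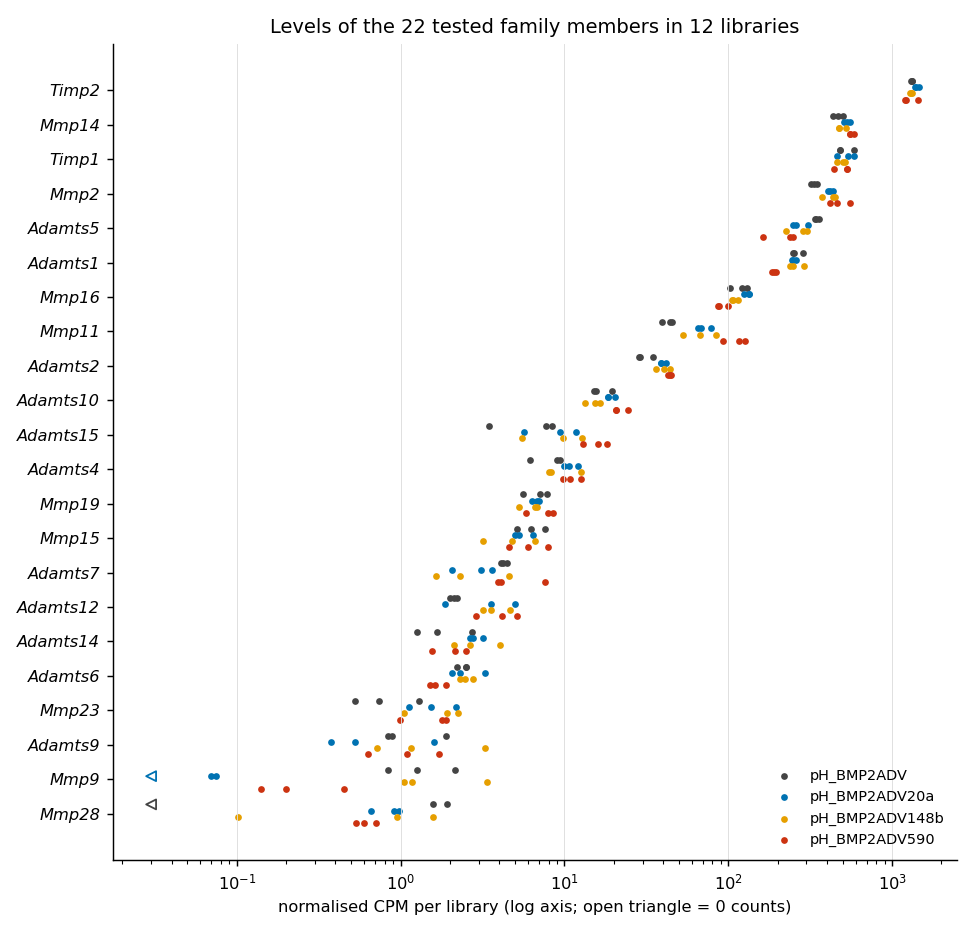
Normalised CPM of the 22 tested members on a log axis, with 1 point for each of the 12 libraries and colours for the 4 groups; an open triangle marks a library with 0 counts. Timp2, Mmp14, Timp1 and Mmp2 lie highest, and Mmp9 spreads more widely between groups than its neighbours.

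The other 23 members were either not detected or too low to test. Of these, 10 had no count in any library: Mmp1a, Mmp1b, Mmp3, Mmp7, Mmp10, Mmp21, Mmp25, Mmp27, Adamts3 and Adamts19. A total of 0 over the 12 libraries allows up to 3 counts, or 0.022 CPM, a limit that covers counting error only. The other 13 had between 1 count (Adamts13) and 72 counts (Mmp17) in all libraries together. Mmp13, the collagenase of hypertrophic cartilage, had 7 counts in total, with 1, 3, 2 and 1 in the pH_BMP2ADV, pH_BMP2ADV20a, pH_BMP2ADV148b and pH_BMP2ADV590 groups. Mmp8, the neutrophil collagenase, had 26 counts in total. With Mmp1a and Mmp1b at 0, the 4 collagenase genes summed to at most 0.742 CPM in any library.

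Position followed this split in part. On GRCm38, 10 MMP genes lie in 1 cluster of 427072 bases on chromosome 9, at chr9:7272514-7699585. The cluster holds Mmp13, Mmp12, Mmp1b, Mmp3, Mmp1a, Mmp10, Mmp8, Mmp27, Mmp20 and Mmp7, and none of these 10 was tested. Mmp12 reached 32 counts in all, the most of the 10. The expressed MMP genes lie elsewhere: Mmp2 at chr8:92827291-92853420, Mmp14 at chr14:54431612-54445364, Mmp16 at chr4:17852893-18119145 and Mmp11 at chr10:75923222-75936496. Adamts1 (chr16:85793827-85803113) and Adamts5 (chr16:85856173-85901828) are neighbours on the same strand, 53059 bases apart.

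The promoters of expressed and silent members in the RefSeq table differed in letters, and 5 of them are shown because they carry that contrast. Each is the RefSeq sequence from 250 bases before to 50 after the gene's start in RefSeq on GRCm38.p6, given 5′ to 3′ on the gene's strand. Capitals mark matches on either strand to the GC box GGGCGG, the BMP-SMAD motif GGCGCC, the TATA box TATAAA and the AP-1 motif TGANTCA. Mmp11, Mmp14 and Adamts1 were expressed, whereas Mmp13 had 7 counts and Mmp3 had 0. Mmp13 and Mmp3 both lie in the chromosome 9 cluster. For Mmp11 the RefSeq start lies inside the longer GENCODE span given above, so its sequence does not flank the start of that span.
Mmp11 (chr10:75932453-75932752, minus strand): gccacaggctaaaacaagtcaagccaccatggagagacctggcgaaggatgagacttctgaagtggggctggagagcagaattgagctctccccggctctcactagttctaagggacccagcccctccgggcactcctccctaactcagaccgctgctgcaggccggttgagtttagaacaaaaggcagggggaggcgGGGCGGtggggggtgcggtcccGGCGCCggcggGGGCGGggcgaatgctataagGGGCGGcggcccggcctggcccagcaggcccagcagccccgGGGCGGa
Mmp14 (chr14:54431348-54431647, plus strand): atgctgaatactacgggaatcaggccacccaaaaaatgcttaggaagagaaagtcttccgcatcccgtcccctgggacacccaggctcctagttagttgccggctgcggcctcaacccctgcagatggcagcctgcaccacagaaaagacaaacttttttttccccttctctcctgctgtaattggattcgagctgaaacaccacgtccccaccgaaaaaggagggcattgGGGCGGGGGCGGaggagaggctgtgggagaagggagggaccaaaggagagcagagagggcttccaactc
Adamts1 (chr16:85803064-85803363, minus strand): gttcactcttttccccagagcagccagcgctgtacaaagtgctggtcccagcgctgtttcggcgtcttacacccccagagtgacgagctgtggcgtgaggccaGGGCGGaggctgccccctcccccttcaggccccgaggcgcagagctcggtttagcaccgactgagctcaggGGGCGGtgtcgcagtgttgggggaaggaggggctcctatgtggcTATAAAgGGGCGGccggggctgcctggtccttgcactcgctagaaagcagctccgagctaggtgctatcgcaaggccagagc
Mmp13 (chr9:7272264-7272563, plus strand): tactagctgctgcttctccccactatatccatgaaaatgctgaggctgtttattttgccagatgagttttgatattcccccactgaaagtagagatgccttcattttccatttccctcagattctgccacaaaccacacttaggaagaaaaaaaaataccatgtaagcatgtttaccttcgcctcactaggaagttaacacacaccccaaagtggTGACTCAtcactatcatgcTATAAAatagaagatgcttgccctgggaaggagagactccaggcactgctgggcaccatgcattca
Mmp3 (chr9:7445572-7445871, plus strand): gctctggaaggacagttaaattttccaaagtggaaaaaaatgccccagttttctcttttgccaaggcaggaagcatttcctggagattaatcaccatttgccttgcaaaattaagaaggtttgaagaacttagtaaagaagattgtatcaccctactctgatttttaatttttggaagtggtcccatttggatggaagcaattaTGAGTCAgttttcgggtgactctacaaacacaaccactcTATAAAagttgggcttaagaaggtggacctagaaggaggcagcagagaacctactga

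The Mmp11 promoter held 4 GC boxes and 1 BMP-SMAD motif, Mmp14 held 2 GC boxes, and Adamts1 held 3 GC boxes and a TATA box. Mmp13 and Mmp3 each held 1 AP-1 motif and 1 TATA box and no GC box. The promoter table covered 31 members with 34 sequences, of which 13 belonged to 12 of the 22 tested members. Mmp2, Mmp9, Mmp16, Adamts5, Adamts10 and Adamts15 are not among these 12. A GC box was found in 84.6% of these 13, in 28.6% of the 21 sequences of members not tested and in 35.7% of all 32851 promoters. The BMP-SMAD motif was found in 46.2%, 4.76% and 11.9% of the same 3 sets. The overlapping sequences of Mmp23 hold the same BMP-SMAD match, which is counted in each. AP-1 matched none of the 13, 38.1% of the 21 and 7.81% of all promoters, and the TATA box 7.69%, 47.6% and 13.6%. Among members not tested, every AP-1 match and, apart from Mmp21, every TATA box match lay in genes of the chromosome 9 cluster. Every GC box of members not tested lay outside that cluster, so these contrasts largely separate the cluster from the other members. The median GC content was 64.7% in these sequences of tested members, 46.7% in those of members not tested and 52.7% in all promoters, so sets of different base composition are being compared. A match is a string of letters and not a bound site, and no binding was measured.

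**Figure D2:**
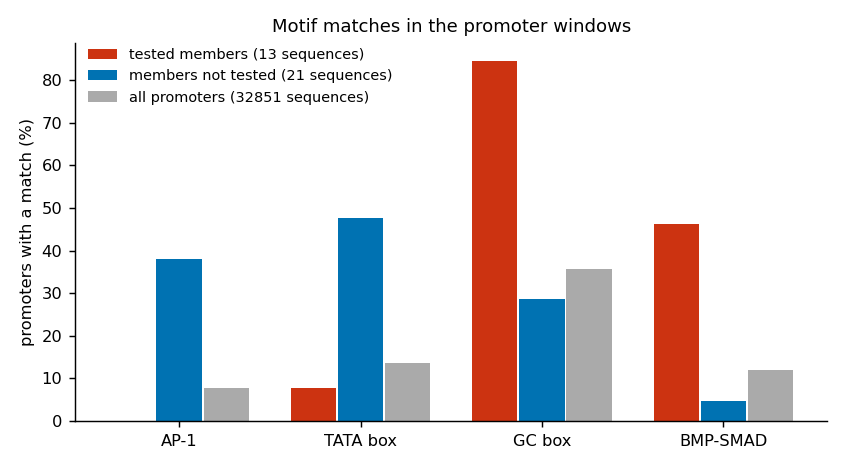
Share of promoters (percent) with at least 1 match to each of 4 motifs, for the 13 sequences of 12 tested members, the 21 of members not tested and all 32851 promoters. GC box and BMP-SMAD matches are most frequent in tested members, and AP-1 and TATA box matches in members not tested. Apart from the TATA box of Mmp21, those AP-1 and TATA box matches are in genes of the chromosome 9 cluster.

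The comparison of pH_BMP2ADV590 with pH_BMP2ADV gave the most changes in the family. Against the reference, 5 members were called higher (Mmp11, Mmp2, Mmp14, Adamts2 and Adamts15) and 4 lower (Adamts1, Adamts5, Mmp16 and Mmp9). These 9 are 40.9% of the 22 tested members, where 8.26% of all 13229 tested genes were called, 4.37% higher and 3.89% lower. Mmp9 passed the filter on low counts only through groups in which it was high, so its call is not separate from the filter, and 8 of the other 21 were called. A call here is an adjusted p under 0.05 in edgeR's quasi-likelihood F-test with Benjamini-Hochberg adjustment over all tested genes. Among genes with a mean of at least 10 CPM, 8 of 11 members and 10.9% of 8744 genes were called; this restriction was chosen after the values were seen. The 2 groups did not overlap in 13 of the 22 members, Mmp9 among them with the same limit, and in 25.1% of all tested genes. The median log2 fold change of the 22 members was 0.11, against 0.00 for all genes, since changes went both ways. Without pH_BMP2ADV replicate 3 the calls fell from 9 to 5 (Mmp11, Mmp2, Adamts1, Adamts2 and Adamts5), and those 5 were also called under each other setting tried. In bulk RNA, a lower level cannot be told apart from fewer cells that express the gene.

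**Figure D3:**
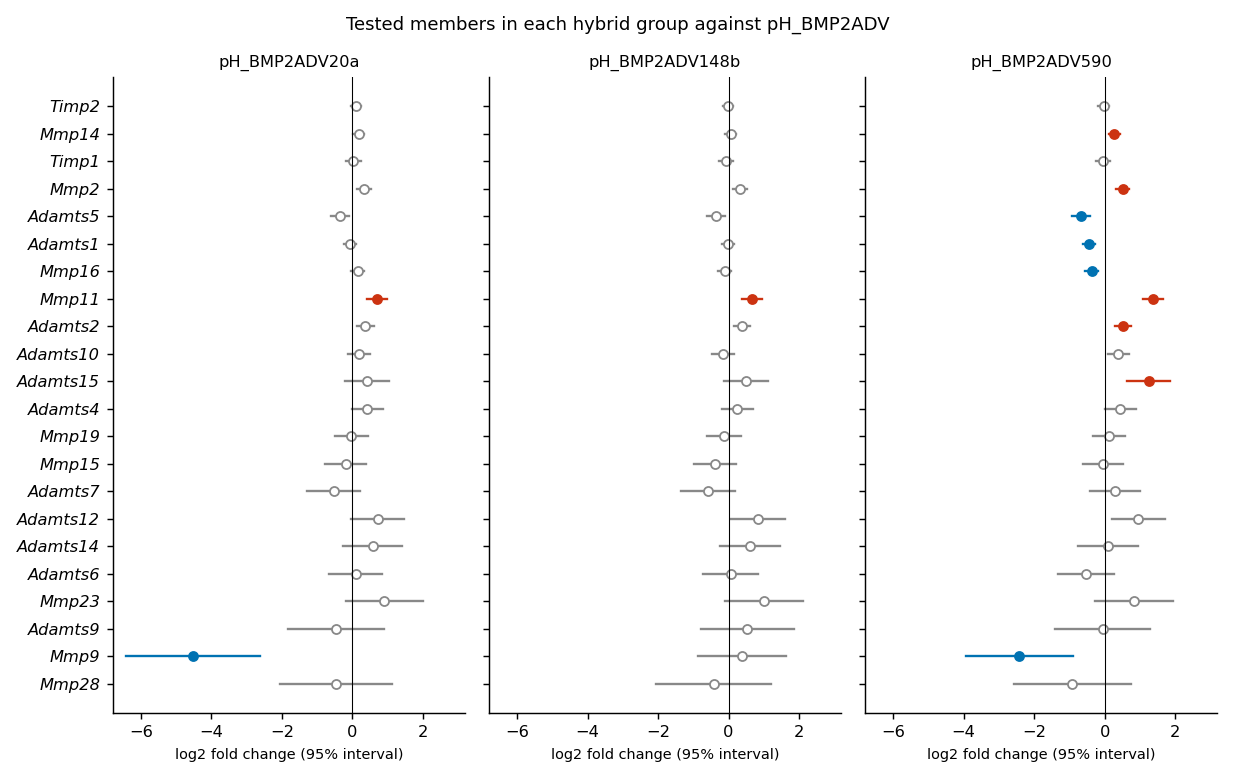
Log2 fold change of the 22 tested members in each hybrid group against pH_BMP2ADV, with 95% intervals; filled red points were called higher, filled blue points lower, and open points were not called. The 3 panels share the same 3 reference libraries, and the pH_BMP2ADV590 panel has 9 filled points, against 2 for pH_BMP2ADV20a and 1 for pH_BMP2ADV148b.

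Among the gelatinases, which cut denatured collagen and basement membrane collagen, Mmp2 was abundant and Mmp9 was near the counting limit. Mmp2 was at 346, 321 and 334 CPM in the pH_BMP2ADV libraries and at 416, 550.5 and 462 CPM in the pH_BMP2ADV590 libraries. The 2 groups did not overlap, and the highest of the 12 values was pH_BMP2ADV590 replicate 2. The log2 fold change was 0.51 (SE 0.0908, adjusted p = 0.000682), and 0.40 without that library (adjusted p = 0.00344). In pH_BMP2ADV20a, Mmp2 was at 418, 435 and 408 CPM, and in pH_BMP2ADV148b at 371, 435 and 448 CPM. All 6 of these libraries also lay above the 3 reference libraries, but neither difference was called, at log2 fold changes of 0.33 (adjusted p = 0.125) and 0.33 (adjusted p = 0.185).

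Mmp9 had 29, 9 and 12 counts in the pH_BMP2ADV libraries, 1, 1 and 0 in pH_BMP2ADV20a, 33, 11 and 10 in pH_BMP2ADV148b, and 2, 5 and 2 in pH_BMP2ADV590. The pH_BMP2ADV20a and pH_BMP2ADV590 libraries were all below every library of the other 2 groups. Summed over a group, pH_BMP2ADV was 28.3 times as high as pH_BMP2ADV20a (50 against 2 counts, exact 95% interval 7.44 to 240) and 5.79 times as high as pH_BMP2ADV590 (50 against 9 counts, 2.82 to 13.4). These intervals cover counting error only. Mmp9 passed the filter on low counts only through its pH_BMP2ADV and pH_BMP2ADV148b libraries, so a member low in the other groups had to differ, and its counts are given as a description. It is included, with that limit, in each count of called members that names it, as lower than pH_BMP2ADV in pH_BMP2ADV20a and pH_BMP2ADV590 among others. The same limit holds for its place in counts of members that did not overlap, where 1 of the 2 groups is pH_BMP2ADV or pH_BMP2ADV148b. The call in pH_BMP2ADV20a was lost without any 1 of 5 libraries (pH_BMP2ADV replicates 1 and 3 and each pH_BMP2ADV20a library), and the one in pH_BMP2ADV590 in 11 of 17 settings.

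Mmp9 is a product of macrophages, osteoclasts and neutrophils as well as of mesenchymal cells. The summed macrophage and osteoclast markers lay between 1.99 and 5.3 CPM over all libraries, with 7 of 11 above 0 and Adgre1, Dcstamp, Ocstamp and Tyrobp at 0. By group they ranged from 1.99 to 4.36 CPM in pH_BMP2ADV, 2.8 to 5.09 in pH_BMP2ADV20a, 3.89 to 5.3 in pH_BMP2ADV148b and 2.6 to 3.32 in pH_BMP2ADV590. The neutrophil markers, with Elane, Mpo and S100a9 at 0, ranged from 0.314 to 2.59 CPM. Of these markers, 4 passed the filter, and 0 of them reached an unadjusted p under 0.05 in any comparison with the reference with edgeR, DESeq2 or limma-voom.

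Of 3 tested membrane-type MMPs, Mmp14 rose and Mmp16 fell in pH_BMP2ADV590, while Mmp15 was not called, at 6.33 ± 1.26 CPM in pH_BMP2ADV and 6.19 ± 1.7 CPM in pH_BMP2ADV590 (n = 3, log2 fold change -0.05, 95% interval -0.62 to 0.53). Mmp14, the main activator of pro-Mmp2, was at 471, 501 and 434 CPM in pH_BMP2ADV and at 556, 549.9 and 588 CPM in pH_BMP2ADV590. The groups did not overlap, and the log2 fold change was 0.27 (SE 0.0746, adjusted p = 0.0246). This call was lost without pH_BMP2ADV replicate 1 or 3, without pH_BMP2ADV590 replicate 3, and with only the 2 groups in the fit, at adjusted p up to 0.155. Mmp14 was at 509, 532 and 554 CPM in pH_BMP2ADV20a and at 475, 474 and 523 CPM in pH_BMP2ADV148b, and neither was called.

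Mmp16, a second membrane-type enzyme of mesenchymal tissue, was at 103, 121 and 129 CPM in pH_BMP2ADV and at 86.1, 87.8 and 99.3 CPM in pH_BMP2ADV590. All pH_BMP2ADV590 libraries lay below the lowest reference library. The log2 fold change was -0.37 (SE 0.0917, adjusted p = 0.0122), and the call was lost without pH_BMP2ADV replicate 2 or 3 (adjusted p up to 0.0939). In pH_BMP2ADV20a, Mmp16 was at 134, 134 and 125 CPM, and the difference between pH_BMP2ADV590 and pH_BMP2ADV20a was -0.53 (SE 0.0913, adjusted p = 0.0032). That call was kept in all 18 other settings.

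Mmp11, stromelysin-3, is made by stromal fibroblasts in remodelling tissue and is activated inside the cell by furin-type proteases. It was the one member called in each hybrid group against the reference. Its level was 45.5, 44.1 and 39.6 CPM in pH_BMP2ADV, 67.8, 65.5 and 78.5 in pH_BMP2ADV20a, 52.7, 66.9 and 84.5 in pH_BMP2ADV148b, and 126, 117 and 92.9 in pH_BMP2ADV590. Every hybrid library lay above every reference library, and every pH_BMP2ADV590 library lay above every library of the other groups. Against pH_BMP2ADV, the log2 fold change was 1.38 in pH_BMP2ADV590 (SE 0.135, adjusted p = 1.1e-06), 0.71 in pH_BMP2ADV20a (SE 0.136, adjusted p = 0.0144) and 0.66 in pH_BMP2ADV148b (SE 0.137, adjusted p = 0.0419). The pH_BMP2ADV590 call was kept in all 18 other settings. The pH_BMP2ADV20a call was lost in 3 of them, without pH_BMP2ADV replicate 2 or 3 or pH_BMP2ADV20a replicate 3 (adjusted p up to 0.149). The pH_BMP2ADV148b call was lost in 10 of the 18 (adjusted p up to 0.328), namely limma-voom, the replicate block and 8 settings that each left out 1 library.

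Mmp11 also differed between the hybrids. It was higher in pH_BMP2ADV590 than in pH_BMP2ADV20a by 0.67 on the log2 scale (SE 0.131, adjusted p = 0.00686) and than in pH_BMP2ADV148b by 0.72 (SE 0.133, adjusted p = 0.00156). Between pH_BMP2ADV20a and pH_BMP2ADV148b it was not called, with a difference of 0.05 and a 95% interval from -0.22 to 0.33. The other stromelysins, Mmp3 and Mmp10, had no count. Mmp11 shares 155 exon bases with Chchd10 on the opposite strand, and without a stated strand setting reads of the 2 genes cannot be told apart there. Chchd10 lay between 0.209 and 2.1 CPM over the 12 libraries, below every Mmp11 value.

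**Figure D4:**
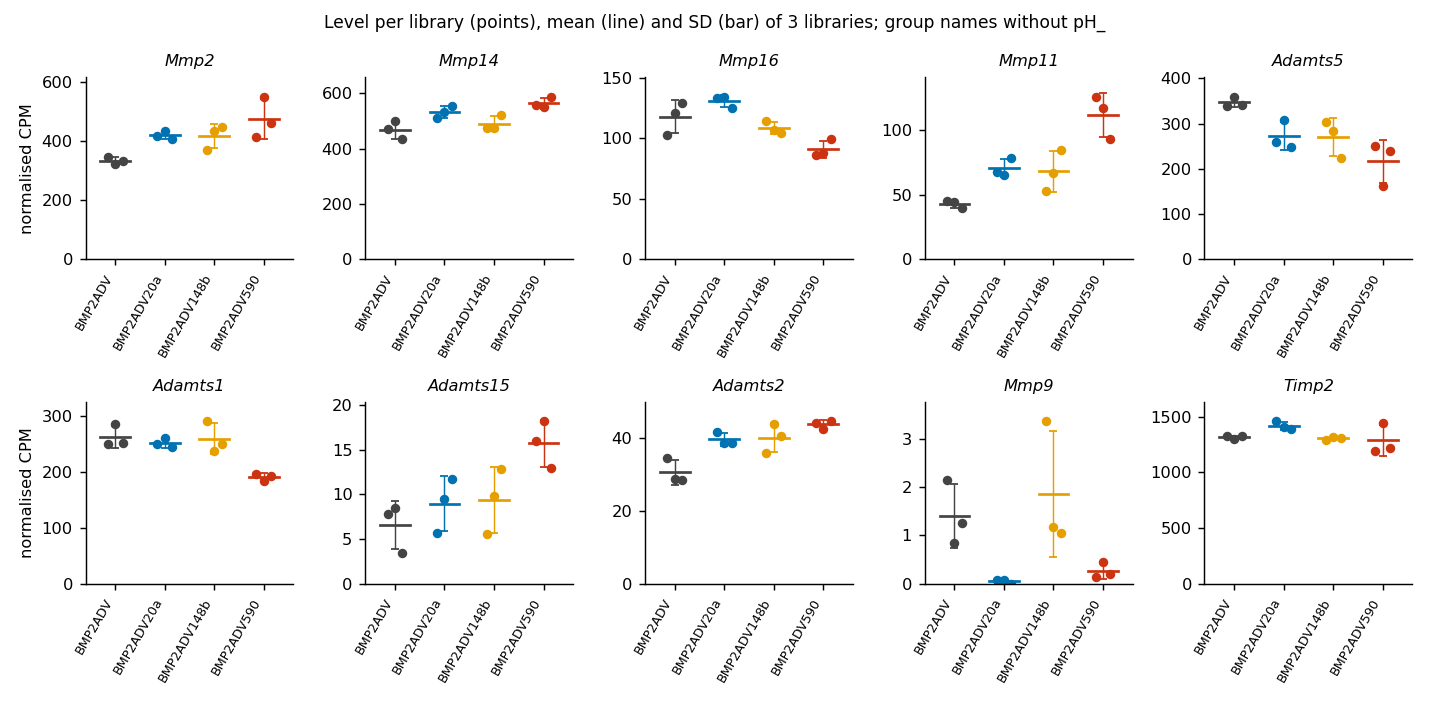
Normalised CPM of 10 members in each library (points), with the mean of 3 libraries (line) and the SD (bar) for each group, on linear axes from 0. Mmp11 and Mmp2 lie highest and Adamts5 and Adamts1 lowest in pH_BMP2ADV590, Mmp9 is near 0 in pH_BMP2ADV20a and pH_BMP2ADV590, and Timp2 overlaps between pH_BMP2ADV and pH_BMP2ADV590.

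The proteoglycan-cleaving ADAMTS genes were dominated by Adamts5 and Adamts1, and both fell in pH_BMP2ADV590. Adamts5, a main aggrecanase of mouse cartilage, was at 340, 359 and 342 CPM in pH_BMP2ADV and at 249.5, 162 and 239.7 CPM in pH_BMP2ADV590. The lowest of the 12 values was pH_BMP2ADV590 replicate 2, and the groups did not overlap. The log2 fold change was -0.68 (SE 0.124, adjusted p = 0.000997), and -0.50 without that library (adjusted p = 0.00221). In pH_BMP2ADV20a, Adamts5 was at 260, 308 and 249 CPM, and in pH_BMP2ADV148b at 303, 284.5 and 224 CPM. These 6 libraries also lay below the reference libraries, at log2 fold changes of -0.35 (adjusted p = 0.311) and -0.36 (adjusted p = 0.362), which were not called.

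Adamts1, which cuts versican and aggrecan, was at 249, 285 and 251 CPM in pH_BMP2ADV, 249.6, 260.3 and 244 in pH_BMP2ADV20a, 290.2, 237 and 249 in pH_BMP2ADV148b, and 196, 184 and 191 in pH_BMP2ADV590. The pH_BMP2ADV590 libraries lay below the other 9, which overlapped one another. The log2 fold change of pH_BMP2ADV590 was -0.46 against pH_BMP2ADV (SE 0.0833, adjusted p = 0.000923), -0.40 against pH_BMP2ADV20a (SE 0.0832, adjusted p = 0.0103) and -0.44 against pH_BMP2ADV148b (SE 0.0835, adjusted p = 0.00188). For the other 2 hybrids against the reference the 95% intervals were -0.23 to 0.11 (pH_BMP2ADV20a) and -0.19 to 0.16 (pH_BMP2ADV148b).

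Of the 3 less abundant tested proteoglycanases, Adamts15 rose and Adamts4 and Adamts9 were not called. Adamts15 was at 7.76, 8.44 and 3.46 CPM in pH_BMP2ADV and at 15.9, 18.2 and 12.9 CPM in pH_BMP2ADV590, with no overlap. It rose by 1.24 on the log2 scale (SE 0.295, adjusted p = 0.00902), a call lost without pH_BMP2ADV replicate 3 (adjusted p = 0.0641). Adamts4, the other well-known aggrecanase, was at 6.14, 8.99 and 9.42 CPM in pH_BMP2ADV and at 10.9, 9.77 and 12.6 CPM in pH_BMP2ADV590, at a log2 fold change of 0.45 (adjusted p = 0.229). Adamts9 was at 1.2 ± 0.592 and 1.15 ± 0.535 CPM in the same groups (n = 3), at a log2 fold change of -0.06 with a 95% interval from -1.41 to 1.29.

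Adamts2, which removes the amino-terminal propeptide of fibrillar procollagens, rose in pH_BMP2ADV590. It was at 34.7, 28.7 and 28.6 CPM in pH_BMP2ADV, 41.8, 38.6 and 38.8 in pH_BMP2ADV20a, 36, 43.9 and 40.6 in pH_BMP2ADV148b, and 44.1, 42.6 and 44.8 in pH_BMP2ADV590. All 9 hybrid libraries lay above the 3 reference libraries. The log2 fold change was 0.51 in pH_BMP2ADV590 (SE 0.112, adjusted p = 0.00486), whereas 0.37 in pH_BMP2ADV20a (adjusted p = 0.195) and 0.39 in pH_BMP2ADV148b (adjusted p = 0.216) were not called. Adamts3, of the same class, had no count. Adamts10, which is linked to fibrillin microfibrils, was at 15.4, 13.3 and 16.5 CPM in pH_BMP2ADV148b and at 20.5, 24.5 and 20.7 CPM in pH_BMP2ADV590. It was called between these 2 groups (log2 fold change 0.54, SE 0.15, adjusted p = 0.0374), a call lost in 7 of 18 settings, the ones without pH_BMP2ADV148b replicate 1 or 2 or pH_BMP2ADV590 replicate 2 or 3 among them (adjusted p up to 0.178).

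The inhibitors Timp1 and Timp2 were not called in any comparison or setting, and their smallest unadjusted p, 0.0647, was that of Timp2 between pH_BMP2ADV590 and pH_BMP2ADV20a. Timp2 was at 1322, 1300 and 1323 CPM in pH_BMP2ADV, 1460, 1408 and 1386 in pH_BMP2ADV20a, 1290, 1317 and 1312 in pH_BMP2ADV148b, and 1192, 1445 and 1220 in pH_BMP2ADV590. Within pH_BMP2ADV590, replicate 2 lay above the reference range and the other 2 below it. The log2 fold change of Timp2 in pH_BMP2ADV590 was -0.03, with a 95% interval from -0.18 to 0.12, and that of Timp1 was -0.05 (-0.25 to 0.15). Timp1 was at 480 to 589 CPM in pH_BMP2ADV and at 439.5 to 530.5 CPM in pH_BMP2ADV590. Timp4 was below the filter, with 44 counts in all.

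Ratios within a library set each enzyme beside its inhibitor. Mmp2 per Timp2 was 0.254 ± 0.00702 in pH_BMP2ADV, 0.296 ± 0.0117 in pH_BMP2ADV20a, 0.32 ± 0.0282 in pH_BMP2ADV148b and 0.37 ± 0.0179 in pH_BMP2ADV590 (mean ± SD, n = 3 libraries a group). All hybrid libraries lay above the highest reference library, at 0.261. Mmp14 per Timp2 was 0.467, 0.38 and 0.482 in pH_BMP2ADV590 and 0.356, 0.385 and 0.328 in pH_BMP2ADV, so replicate 2 of pH_BMP2ADV590 lay inside the reference range. Summed by family, the MMP genes stood at 980.9 ± 25.5 CPM in pH_BMP2ADV and 1260 ± 62.6 in pH_BMP2ADV590, and the ADAMTS genes at 683 ± 30.2 and 515 ± 48.2. The TIMP sum, of Timp1, Timp2 and Timp4 without Timp3, was 1832 ± 69.6 and 1785 ± 173 in the same groups. The MMP and ADAMTS sums did not overlap between these 2 groups, and the TIMP sums did. These sums are carried by the few most abundant members and were not tested.

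**Figure D5:**
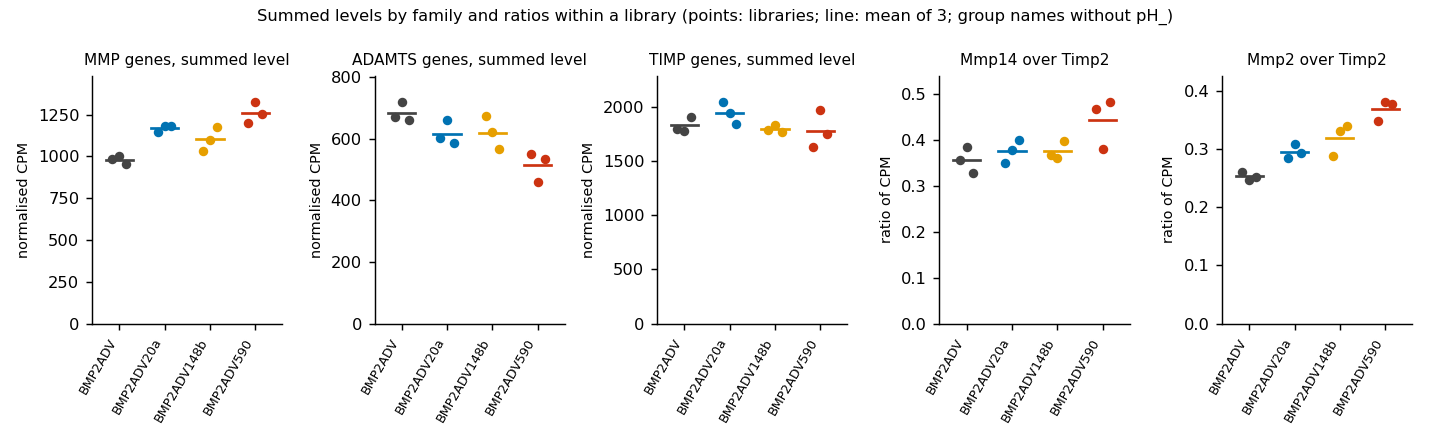
Summed normalised CPM of the MMP genes, of the ADAMTS genes and of Timp1, Timp2 and Timp4, and the ratios of Mmp14 and Mmp2 to Timp2, in each library (points) with the mean of 3 (line). In pH_BMP2ADV590 the MMP sum and the Mmp2 ratio lie above, and the ADAMTS sum below, all 3 pH_BMP2ADV libraries.

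In the other comparisons with the reference few members were called. In pH_BMP2ADV20a, Mmp11 was called higher and Mmp9 lower, 2 of the 22 members where 0.476% of all genes were called, 0.0983% higher and 0.378% lower. The 2 groups did not overlap in 9 of the 22 members, with Mmp9 included under the limit of the filter, and in 16.5% of all genes. The count of calls went to 1 without pH_BMP2ADV replicate 1 or 2 or pH_BMP2ADV20a replicate 1 or 2, and to 0 without replicate 3 of either group. In pH_BMP2ADV148b, Mmp11 alone rose, 1 of 22 members where 0.249% of all genes were called, 0.212% higher and 0.0378% lower. The 2 groups did not overlap in 5 members and in 14.7% of all genes. The count of calls went to 0 without any 1 of 8 libraries (each pH_BMP2ADV and pH_BMP2ADV20a library and pH_BMP2ADV148b replicates 2 and 3) and to 2 without pH_BMP2ADV590 replicate 2, which added Mmp2. At an unadjusted p under 0.05 with edgeR, 6 members passed in pH_BMP2ADV20a, 5 in pH_BMP2ADV148b and 12 in pH_BMP2ADV590. The 6 and the 12 include Mmp9. The share of all genes at that level is not given here, so these counts are a description only. The 3 comparisons share the reference libraries.

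Between the hybrids, pH_BMP2ADV590 and pH_BMP2ADV148b differed in 4 members (Mmp11 and Adamts10 higher, Adamts1 and Mmp9 lower in pH_BMP2ADV590), where 4.43% of all genes were called, 2.46% higher and 1.97% lower. These groups did not overlap in 8 of the 22 members, with Mmp9 included under the limit of the filter, and in 20.8% of all genes. The count of calls fell to 2, Mmp11 and Adamts1, without pH_BMP2ADV148b replicate 1 or pH_BMP2ADV590 replicate 3. Between pH_BMP2ADV590 and pH_BMP2ADV20a, 3 members differed (Mmp11 higher, Adamts1 and Mmp16 lower), where 2.17% of all genes were called, 1.29% higher and 0.877% lower. Without pH_BMP2ADV20a replicate 1 or 2 the only member called was Mmp16. Here 10 members, among them Mmp9 at 9 against 2 counts, and 19.1% of all genes did not overlap. Between pH_BMP2ADV20a and pH_BMP2ADV148b the one member called was Mmp9, at 2 against 54 counts, where 0.559% of genes were called, 0.0529% higher and 0.506% lower. There 4 members, Mmp9 among them, and 14% of all genes did not overlap. The Mmp9 call was lost without pH_BMP2ADV20a replicate 1 or 3 or pH_BMP2ADV148b replicate 1. Since Mmp9 passed the filter through pH_BMP2ADV148b and pH_BMP2ADV, its call and its lack of overlap are a description only. No other member was called between these 2 hybrids. Across all 4 groups at once, 8 members were called, Mmp2, Mmp9, Mmp11, Mmp16, Adamts1, Adamts2, Adamts5 and Adamts15, where 6.25% of genes were called. Mmp14 and Adamts10 were each called in 1 comparison of 2 groups and not across the 4 groups.

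The hybrid plasmids are named after microRNAs, and the family's transcripts were searched for sites of miR-20a and miR-148b. Sites of miR-590 were not searched here. MicroRNAs pair with target transcripts mainly through their seed, bases 2 to 8, which is in capitals in the mature mouse sequences from RefSeq (GRCm38.p6).
mmu-miR-20a-5p: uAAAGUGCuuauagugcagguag
mmu-miR-20a-3p: aCUGCAUUacgagcacuuaaag
mmu-miR-148b-3p: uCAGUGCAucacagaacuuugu
mmu-miR-148b-5p: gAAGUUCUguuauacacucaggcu
The members below carry a perfect match to a seed, in capitals, in the longest annotated 3' UTR on GRCm38, and are shown because the values above bear on them.
Adamts5, miR-20a-5p site, chr16:85859618-85859639, minus strand: tgtataaagtGCACTTTgtgag
Timp2, miR-20a-5p site, chr11:118301831-118301852, minus strand: attagactttGCACTTTtaaaa
Adamts1, miR-148b-3p site, chr16:85795085-85795106, minus strand: gaagccctgtTGCACTGtacta
Adamts2, miR-148b-3p site, chr11:50806512-50806533, plus strand: cacccgacccTGCACTGctcca
Mmp16, miR-148b-3p site, chr4:18119110-18119131, plus strand: tctatcaacaTGCACTGaactt

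The miR-148b-3p site was found in 6 of the 22 tested members (Adamts1, Adamts2, Adamts12, Adamts15, Mmp15 and Mmp16), or 27.3%, against 15.8% of the 11583 tested genes with a 3' UTR. The median 3' UTR was 1753.5 bases in the members and 1220 in all tested genes, and longer ones hold more matches. In pH_BMP2ADV148b against the reference, 0 of the 6 were called with edgeR, DESeq2 or limma-voom, where edgeR called 0.249% of all genes. With so few calls, 0 of 6 is a description only. The 2 with an unadjusted p under 0.05 with edgeR, Adamts2 and Adamts12, were both higher in pH_BMP2ADV148b. Adamts1 changed by -0.01, Mmp16 by -0.11 and Adamts2 by 0.39 on the log2 scale there. The miR-20a-5p site was found in 3 tested members, Adamts5, Mmp23 and Timp2, or 13.6% against 15.1% of all. In pH_BMP2ADV20a, where edgeR called 0.476% of all genes, Adamts5 stood at -0.35 and Timp2 at 0.11 against the reference. Of the 3, 0 were called with any of these tools, and Adamts5 had an unadjusted p under 0.05 with edgeR. Against the reference, Adamts5 also stood at -0.36 in pH_BMP2ADV148b and at -0.68 in pH_BMP2ADV590, so its lower level was not particular to pH_BMP2ADV20a. The part of the miR-20a-5p site in it was not tested. Sites of the opposite arms were found in 3 members for miR-20a-3p (Adamts5, Mmp2 and Mmp16) and in 2 for miR-148b-5p (Adamts5 and Adamts15).

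Other genes of the same pathways were counted from 3 lists. Of 29 tested genes of pericellular proteolysis, 6 rose and 1 fell in pH_BMP2ADV590 against the reference, where 4.37% of all tested genes were called higher and 3.89% lower. Their median log2 fold change was 0.11, against 0.00 for all genes. The 7 calls went to 3 without pH_BMP2ADV590 replicate 2 and to 2 without pH_BMP2ADV replicate 2 or 3. Adam17, the sheddase that releases membrane-bound growth factors and cytokines, rose by 0.67 (SE 0.122, adjusted p = 0.000902). Furin, the proprotein convertase that activates Mmp14 and Mmp11, rose by 0.36 (SE 0.104, adjusted p = 0.029), and Bsg, a surface inducer of MMP expression, by 0.27. Serpine2, an inhibitor of serine proteases, rose by 0.39. Plau, the urokinase plasminogen activator, fell from 12.3 ± 2.51 to 7.76 ± 1.85 CPM (n = 3, log2 fold change -0.67, adjusted p = 0.0399). The Plau call was lost without pH_BMP2ADV590 replicate 2, where no gene of this list was called lower.

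Of 15 tested matrix substrates of these enzymes, 9 rose and 0 fell in pH_BMP2ADV590 (4.37% and 3.89% of all tested genes), with a median log2 fold change of 0.48, and 5 were called without pH_BMP2ADV replicate 2. Aggrecan (Acan), the substrate of Adamts4 and Adamts5, was at 32.4 ± 9.37 CPM in pH_BMP2ADV and 85.4 ± 18.2 CPM in pH_BMP2ADV590 (n = 3, log2 fold change 1.39, adjusted p = 0.000652). The link protein Hapln1, which holds aggrecan on hyaluronan, rose by 1.23 (SE 0.142, adjusted p = 7.96e-06). Col10a1, the collagen of hypertrophic cartilage, rose by 1.36 (SE 0.155, adjusted p = 7.32e-06). It carried most of the sum of 6 hypertrophic chondrocyte markers, at 493 ± 43.7 CPM in pH_BMP2ADV590 and 192.5 ± 48.5 CPM in pH_BMP2ADV (n = 3). The sum ranged from 493 to 578 and from 184 to 264 CPM in these groups. Of the 4 markers tested, Col10a1 was the one called. Runx2 was at 42.3 ± 3.02 and 41.7 ± 2.92 CPM in the same groups, the group means of Ihh, Sp7 and Ibsp were at most 2.87 CPM, and Mmp13 had 7 counts in all libraries. The part of the higher Col10a1 level in the levels of Mmp11, Mmp2, Adamts5 and Adamts1 was not tested. In pH_BMP2ADV20a, where 0.476% of all genes were called, 2 substrates rose, Fmod by 0.60 and Sparc by 0.35, and both calls were lost without pH_BMP2ADV replicate 1 or 2, any pH_BMP2ADV20a library or pH_BMP2ADV148b replicate 2.

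Of 16 tested regulators of these proteases, 1 rose and 3 fell in pH_BMP2ADV590, where 8.26% of all tested genes were called, and their median log2 fold change was -0.12. Sox9, the cartilage transcription factor, rose by 0.77 (SE 0.1, adjusted p = 2.87e-05). Fosl1, an AP-1 subunit, was at 42.3 ± 4.93 CPM in pH_BMP2ADV, 24.2 ± 4.65 in pH_BMP2ADV20a, 30.5 ± 3.52 in pH_BMP2ADV148b and 16.7 ± 3.71 in pH_BMP2ADV590 (n = 3). It was called lower than the reference in pH_BMP2ADV20a (log2 fold change -0.80, adjusted p = 0.0151) and in pH_BMP2ADV590 (-1.34, adjusted p = 1.08e-05). No other AP-1 subunit of the list was called in either comparison. Relb, an NF-kB subunit, was lower in the same groups, at log2 fold changes of -0.90 (adjusted p = 0.0355) and -1.34 (adjusted p = 0.000137). Rela stood at -0.33 in pH_BMP2ADV590 (adjusted p = 0.0309). Both pH_BMP2ADV20a calls were lost without replicate 2 or 3 of pH_BMP2ADV or of pH_BMP2ADV20a. In pH_BMP2ADV148b, where edgeR called 0.249% of all genes, 0 genes of the 3 lists were called with edgeR, DESeq2 or limma-voom. At an unadjusted p under 0.05, edgeR gave 1 gene of proteolysis, 1 substrate and 3 regulators. These counts are a description only, since the share of all genes at that level is not given here.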

How the data were processed

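The deposited values are raw counts of reads per gene in 12 libraries of 3' ends (QuantSeq 3' mRNA FWD, per the labels' protocols). The submitters' processing notes name FastQC 0.11.5, STAR 2.5.2a, HTSeq 0.6.0 and GRCm38. Strand setting and counting mode were not given in the sources used here, nor was the annotation release. Counts of members that overlap a gene on the opposite strand, as several tested members do, may hold reads of that gene. Records without a gene, 52.2% to 54.4% of a library, were left out. Symbols came from GENCODE on GRCm38 for 47224 of 47643 genes.

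Counts were fitted with edgeR 4.0.16 (R 4.3.3) over all 12 libraries, 1 mean a group, with TMM scaling, filterByExpr (13229 genes tested), quasi-likelihood F-tests and Benjamini-Hochberg adjustment over all tested genes, called under 0.05. The common biological coefficient of variation was 0.117. Levels are TMM-normalised CPM. The script was tested on simulated data.

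Members, lists and rules were chosen with earlier results of these data known. Values are given for members called in any comparison, the 8 most abundant, and 12 classical members; from related lists, called genes, at most 6 a list. Alternatives were DESeq2 1.42.0, limma-voom 3.58.1, other size factors, no filter, a replicate block, 2 groups only and leaving out each library.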

Additional observations from a re-analysis of the deposited data

How the results depend on the processing

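Of 358 recomputed fold changes of called members, 304 stayed called in the same direction, 54 lost their call and 0 reversed. Without the filter on low counts, called members went from 2 to 4 in pH_BMP2ADV20a against pH_BMP2ADV, from 1 to 3 in pH_BMP2ADV148b against pH_BMP2ADV, and from 3 to 5 in pH_BMP2ADV590 against pH_BMP2ADV20a. With only the 2 groups in the fit, pH_BMP2ADV20a against pH_BMP2ADV gave 4. With limma-voom, pH_BMP2ADV148b against pH_BMP2ADV gave 0, and pH_BMP2ADV590 against pH_BMP2ADV148b gave 2 in place of 4. Leaving out 1 library at a time gave 0 to 3 called members in pH_BMP2ADV20a, 0 to 2 in pH_BMP2ADV148b and 5 to 9 in pH_BMP2ADV590 against the reference. It gave 0 to 1 for pH_BMP2ADV20a against pH_BMP2ADV148b, 1 to 3 for pH_BMP2ADV590 against pH_BMP2ADV20a, 2 to 4 for pH_BMP2ADV590 against pH_BMP2ADV148b and 6 to 8 over the 4 groups. The replicate numbers did not pair the libraries: none of 18 correlations of same-numbered libraries, from -0.113 to 0.0715, was over 0.1. With the replicate block, pH_BMP2ADV148b against pH_BMP2ADV gave 0 called members and pH_BMP2ADV590 against pH_BMP2ADV gave 8. The causes of these shifts were not tested, and the shares of all genes called under these settings are not given here. Depth limits Mmp9, at 2 to 54 counts a group, and the 23 members that were not tested.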

Other observations

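Several members below the filter had most of their counts in some groups; they were not tested and were singled out after their values were seen. Adamts8, a proteoglycanase, lies 20109 bases from Adamts15 on chromosome 9. It had 3 counts in pH_BMP2ADV, 17 in pH_BMP2ADV20a, 27 in pH_BMP2ADV148b and 4 in pH_BMP2ADV590. Its 27 counts in pH_BMP2ADV148b were 16, 6 and 5 by library. Mmp17, a membrane-type MMP anchored by a lipid, had 28, 13, 24 and 7 counts in the same order of groups. Mmp20, the enamel protease, had all of its 5 counts in 1 pH_BMP2ADV20a library. Timp4 had 4, 12, 9 and 19 counts, and its 19 in pH_BMP2ADV590 were 13, 3 and 3 by library.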
